A study of Mus musculus with 6 samples.

Results

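The genes described here encode the subunits of the transcription factor NF-kB and the IkB proteins that bind it: Nfkb1, Rela and Rel (classical pathway), Nfkb2 and Relb (alternative pathway), Nfkbia, Nfkbib and Nfkbie (classical IkB inhibitors), and Nfkbiz and Bcl3 (nuclear IkB proteins). They were found as the Affymetrix MOE430A probe sets whose platform annotation gives exactly 1 of these symbols. Of the 10 genes, 9 were found, with 14 of the 22690 probe sets. Nfkb1 was not analysed here. A probe set is a group of short oligonucleotides that reads 1 transcript or part of it, and its signal cannot be set against that of another probe set.

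The cells were mouse dendritic cells, which present antigen to T cells, grown for 7 days of expansion and 7 days of differentiation in 250 U/ml GM-CSF from bone marrow of a 13-week-old female CAR-transgenic mouse, so every group carries this transgene. There were 6 groups with 1 array each: AdIkBa-SR with TNFa, AdIkBa-SR, AdOVA with TNFa, AdOVA, TNFa without virus, and untreated cells. AdIkBa-SR is an adenovirus that carries a super-repressor form of IkBa, which resists the breakdown that normally frees NF-kB, and AdOVA is the control adenovirus. Virus was given at 1500 particles per cell for 2 h, followed by 18 h of culture, and TNFa, a cytokine that activates NF-kB, at 50 ng/ml for 4 h. The labels record no mock transduction, so the virus and its handling cannot be told apart. Whether separate cultures gave the groups is not stated, and with 1 array each a difference between arrays has no replicate check. Because a bulk culture was measured, fewer cells of a type and less RNA per cell cannot be told apart.

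In resting cells, IkB proteins hold NF-kB dimers in the cytoplasm. In the classical pathway the IKK complex marks IkB proteins for breakdown, and dimers that contain RelA or c-Rel enter the nucleus. In the alternative pathway the kinase NIK drives the processing of the Nfkb2 precursor, which frees dimers with RelB. Several genes of the system, Nfkbia among them, are themselves known targets of NF-kB, so that a signal through the pathway is followed by new inhibitor. In dendritic cells NF-kB is known for its part in maturation and cytokine production.

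The promoters of 4 of these genes are shown because the kB consensus motif, the DNA element bound by NF-kB, is found at different places in them or not at all. The motif of 10 bases was searched on both strands in the 250 bases before each gene start annotated by RefSeq (build GRCm38.p6), and 3.90% of 32851 such windows held it. For 7 of the 10 genes the table had windows, 9 in all, of which 6 held a match (Nfkb2 at each of its 3 starts, Nfkbia, Nfkbie and Rel). The windows of Nfkbib, Rela and Bcl3 held none. Each line below gives a window 5′ to 3′ on the gene's strand, in lower case with bases of a match in capitals; matches that overlap run together.
Nfkbia (chr12:55492648-55492897, minus strand): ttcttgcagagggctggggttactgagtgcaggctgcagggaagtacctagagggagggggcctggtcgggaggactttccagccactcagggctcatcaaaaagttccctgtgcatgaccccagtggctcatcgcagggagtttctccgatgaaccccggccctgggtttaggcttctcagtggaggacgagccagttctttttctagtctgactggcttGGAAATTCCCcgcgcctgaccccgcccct
Nfkb2, first start (chr19:46304487-46304736, plus strand): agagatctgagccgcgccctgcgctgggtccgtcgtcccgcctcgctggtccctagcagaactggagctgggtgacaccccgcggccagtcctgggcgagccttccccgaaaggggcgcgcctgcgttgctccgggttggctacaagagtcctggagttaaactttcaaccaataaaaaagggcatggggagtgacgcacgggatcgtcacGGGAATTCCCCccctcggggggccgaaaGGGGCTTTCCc
Rel (chr11:23770970-23771219, minus strand): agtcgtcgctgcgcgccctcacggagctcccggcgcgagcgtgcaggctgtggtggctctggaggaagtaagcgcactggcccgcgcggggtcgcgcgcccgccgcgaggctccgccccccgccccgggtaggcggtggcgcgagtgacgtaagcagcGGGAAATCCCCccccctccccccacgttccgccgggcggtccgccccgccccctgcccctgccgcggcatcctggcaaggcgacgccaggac
Nfkbib (chr7:28766645-28766894, minus strand): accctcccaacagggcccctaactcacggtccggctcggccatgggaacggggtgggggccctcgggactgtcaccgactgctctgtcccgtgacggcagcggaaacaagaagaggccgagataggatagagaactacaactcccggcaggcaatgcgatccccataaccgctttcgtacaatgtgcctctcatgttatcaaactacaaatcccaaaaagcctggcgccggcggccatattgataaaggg
The match in the Nfkbia window began 29 bases before the start. The Nfkb2 window held an overlapping pair at 39 and 38 bases and another match at 11 bases, and the Rel window an overlapping pair at 92 and 91 bases. A match of letters is a description of the window and does not show that NF-kB binds there.

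The arrays had been brought to a common trimmed mean of 200.1, and their median signals ran from 74.4 (AdIkBa-SR) to 88.5 (AdOVA with TNFa). Signals under a floor of 53.5 were set to it before log2 values were taken, and 14906 probe sets that exceeded it on at least 2 arrays were tested. All 14 probe sets of the NF-kB and IkB genes were among them, and only Relb on the AdIkBa-SR array lay under the floor. The array headers give 1 hybridize time stamp for the untreated, TNFa and AdOVA arrays and another for the other 3. These were taken as 2 fluidics rounds, which the headers do not name. The AdIkBa-SR array had 0 cycles in both recorded washes where the others had 10 and 4. The 18S 5′ control signal was 2601 on the AdOVA with TNFa array and 120 to 537 on the others. Of 12 dendritic cell markers, 9 were above the floor on every array, while 4 of the 5 T cell markers with a probe set were under it on every array. The summed signal of 9 granulocyte genes was 25144 and 23444 in AdIkBa-SR cells with and without TNFa, 9975 and 17698 in AdOVA cells, and 13064 and 19997 in cells without virus. The summed signal of 6 macrophage genes was 8851 and 8462 in AdIkBa-SR cells with and without TNFa, 6821 and 7124 in AdOVA cells, and 8547 and 8493 in cells without virus. These sums mostly follow their brightest probe sets, S100a8, S100a9 and Ngp for granulocytes and Adgre1 and Cd68 for macrophages. Cd68 gave 1815 and 2008 on the AdOVA arrays with and without TNFa and 2975 to 4548 on the others. Adgre1 stayed between 3774 and 5042. Itgax, the gene of the dendritic cell integrin CD11c, gave 329 and 247 on the AdOVA arrays with and without TNFa and 664 to 847 on the other 4, and was the 1 dendritic cell marker called with AdOVA. The median fitted log2 difference of the 11 markers tested was 0.01 with AdOVA, and Zbtb46, H2-Ab1 and Cd86 were at 0.85, 0.61 and 0.47 without a call. Itgam, Csf1r, Cd74 and H2-Aa were at -0.41, -0.39, -0.26 and -0.24, also without a call. Of 5 mast cell and basophil genes tested, Cpa3 was called fallen with AdOVA, at -0.87 (3.86% of all were). With AdIkBa-SR against AdOVA, Itgax was called risen with and without TNFa, and Cd68, Prtn3, Camp and Ngp with TNFa. Of all probe sets tested, 2.35% were called risen with TNFa and 0.436% without. The part of these differences in the results below was not tested.

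**Figure D1:**
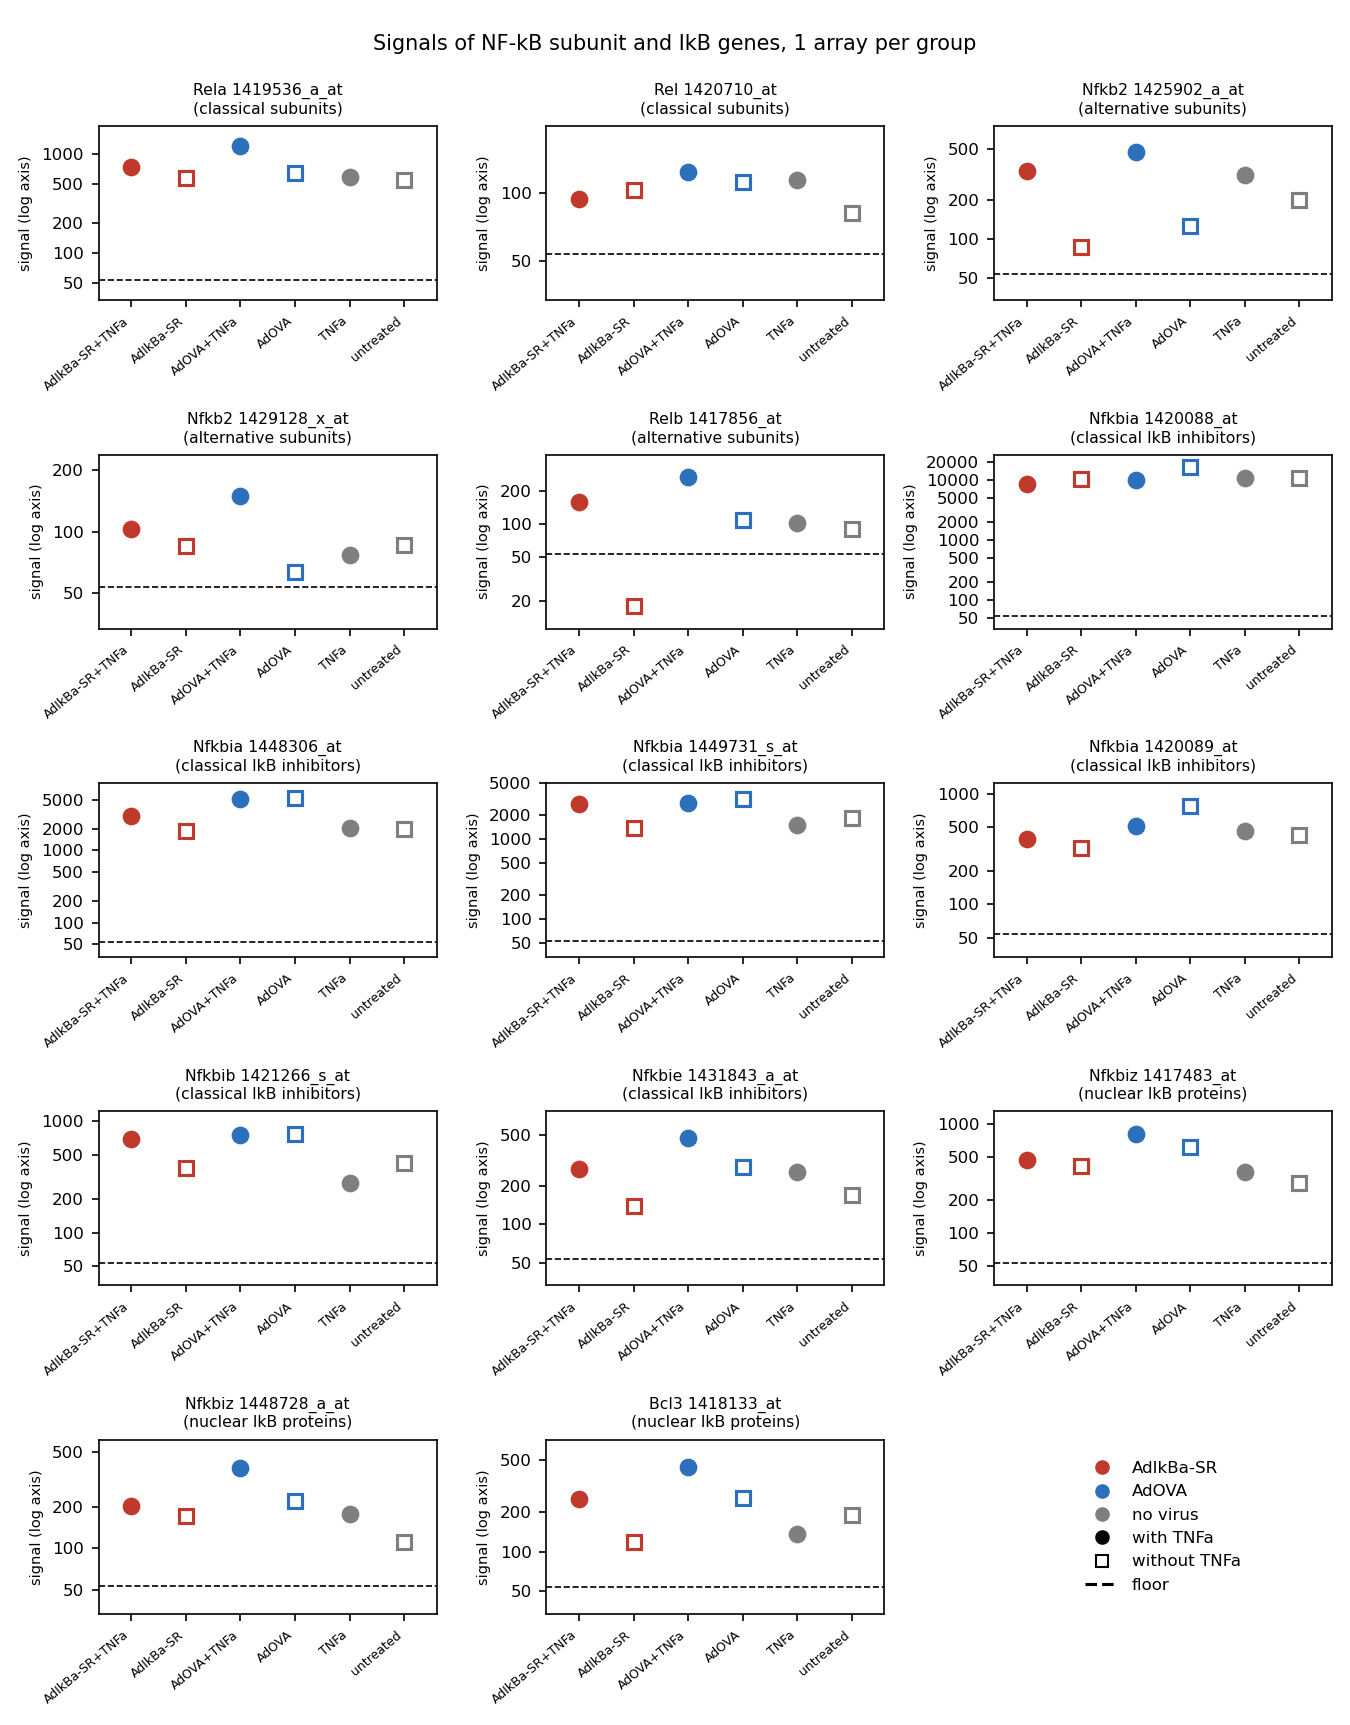
Signal (log axis, arbitrary units) of each of the 14 probe sets on the 6 arrays, 1 point per array; colours give the virus, filled circles cells with TNFa, open squares cells without, and the dashed line the floor of 53.5. Each probe set has its highest point on 1 of the 2 AdOVA arrays, and Relb on the AdIkBa-SR array, at 18.2, is the only point under the floor.

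Among the classical subunits, Rela stood out on 1 array and Rel varied little. Rela, the subunit that carries the main activation domain of classical dimers, gave signals of 743 and 571 in AdIkBa-SR cells with and without TNFa, 1190.0 and 646 in AdOVA cells with and without TNFa, and 584 and 550.1 in cells without virus with and without TNFa. Its AdOVA with TNFa signal stood alone, and the untreated, TNFa and AdIkBa-SR signals lay within 1.06-fold of each other. Rel, which encodes c-Rel, a subunit known for its role in cytokine genes of myeloid cells, gave 94.3 and 103 in AdIkBa-SR cells with and without TNFa, 124 and 112 in AdOVA cells, and 114 and 81.2 in cells without virus. The whole range of Rel was 1.52-fold, at signals not far above the floor, and no order among its neighbours can be read from single arrays.

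The alternative subunits had their highest signals in AdOVA cells with TNFa. Nfkb2, the precursor of the subunit that pairs with RelB, gave 336 and 85.9 in AdIkBa-SR cells with and without TNFa, 470.3 and 127 in AdOVA cells, and 313 and 201 in cells without virus (probe set 1425902_a_at). Its 3 arrays with TNFa were all above its 3 arrays without, and its whole range was 5.47-fold. The other Nfkb2 probe set, 1429128_x_at, for which the annotation gives no accession, gave 104 and 85.0 in AdIkBa-SR cells with and without TNFa, 149.6 and 63.1 in AdOVA cells, and 76.6 and 86.1 in cells without virus. The Nfkb2 probe sets disagreed in cells without virus, where the second was slightly lower with TNFa. In AdIkBa-SR cells the second was 1.22-fold higher with TNFa and the first 3.90-fold. Relb gave 158 and 18.2 in AdIkBa-SR cells with and without TNFa, 266 and 109 in AdOVA cells, and 102 and 90.7 in cells without virus. Its 2 highest signals were those of the virus-treated cells with TNFa, and the signal of 18.2 has no order against other values under the floor.

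The classical IkB genes, unlike the subunits, were mostly at their highest in AdOVA cells without TNFa. Nfkbia encodes IkBa, the inhibitor that is broken down and replaced fastest after a stimulus. The Nfkbia probe set with an accession, 1448306_at, gave 2997 and 1849 in AdIkBa-SR cells with and without TNFa, 5066 and 5338 in AdOVA cells, and 2044 and 1981 in cells without virus. The AdOVA arrays stood above all 4 others, and the AdIkBa-SR, TNFa and untreated arrays lay close together. The other 3 Nfkbia probe sets carry no accession in the annotation. Probe set 1449731_s_at gave 2723 and 1359 in AdIkBa-SR cells with and without TNFa, 2836 and 3147 in AdOVA cells, and 1485 and 1837 in cells without virus. Probe set 1420089_at gave 391 and 322 in AdIkBa-SR cells with and without TNFa, 515 and 784 in AdOVA cells, and 463 and 424 in cells without virus. Probe set 1420088_at gave 8571 and 10118 in AdIkBa-SR cells with and without TNFa, 9729 and 16336 in AdOVA cells, and 10697 and 10622 in cells without virus. The 4 probe sets agreed on the AdOVA array as the highest but not on AdOVA with TNFa, which in 1420088_at was below both arrays without virus. No Nfkbia probe set was at its highest on an AdIkBa-SR array, and whether any of them reads the IkBa-SR transgene was not tested.

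Nfkbib encodes IkBb, an inhibitor known to be broken down and replaced more slowly than IkBa. It gave 692 and 382 in AdIkBa-SR cells with and without TNFa, 754 and 770.3 in AdOVA cells, and 281 and 427 in cells without virus. Nfkbib was thus high on the AdOVA arrays and on the AdIkBa-SR array with TNFa, and at its lowest on the array of TNFa without virus. Nfkbie, which encodes IkBe, gave 268 and 139 in AdIkBa-SR cells with and without TNFa, 473 and 277 in AdOVA cells, and 257 and 169.6 in cells without virus. Nfkbie was higher with TNFa in each virus state, and AdOVA with TNFa stood apart from the other 5 arrays.

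The nuclear IkB proteins act on DNA-bound NF-kB instead of holding it in the cytoplasm: Nfkbiz encodes IkBz, a co-activator of secondary response genes such as Il6, and Bcl3 a partner of dimers that lack an activation domain. Nfkbiz gave 469 and 412 in AdIkBa-SR cells with and without TNFa, 807 and 617 in AdOVA cells, and 360.2 and 286 in cells without virus (probe set 1417483_at). The second Nfkbiz probe set, 1448728_a_at, gave 201 and 171 in AdIkBa-SR cells with and without TNFa, 381 and 221 in AdOVA cells, and 177 and 109.9 in cells without virus. Both were highest in AdOVA cells with TNFa and lowest in untreated cells. In 1417483_at the AdOVA arrays stood above the 4 others. In 1448728_a_at the AdOVA signal of 221 lay close to the 201 of AdIkBa-SR with TNFa. Bcl3 gave 251 and 119 in AdIkBa-SR cells with and without TNFa, 447 and 255 in AdOVA cells, and 135 and 189.8 in cells without virus. Its signals on the AdIkBa-SR with TNFa and AdOVA arrays were nearly equal, and only without virus was Bcl3 lower with TNFa.

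AdOVA was set against cells without virus, a comparison of the control virus together with its handling. Probe sets of the inhibitor genes Nfkbia and Nfkbib and of the nuclear IkB gene Nfkbiz were called risen with AdOVA, and no subunit was called. The Nfkbia probe sets 1420088_at and 1420089_at, at fitted log2 differences of 0.24 and 0.52, were not called. Limma was fitted to the 6 arrays with 1 TNFa response shared by AdOVA cells and cells without virus, which leaves 1 residual degree of freedom, and values were called at an adjusted p under 0.05. It called 5 of the 14 probe sets risen, where it called 4.03% of all probe sets tested risen and 3.86% fallen (600 and 575, against 43 and 15 with equal array medians and 14 and 0 after quantile normalization); 0 fell, and 9 had an unadjusted p under 0.05 (23.5% of all). The median of the 14 fitted log2 differences was 0.81, and that of all probe sets tested 0.06.

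In fitted log2 differences, each the mean of the pairs with and without TNFa, Nfkbia 1448306_at rose by 1.37 with AdOVA (SE 0.26, adjusted p = 0.0035). Nfkbiz rose by 1.14 (SE 0.25, adjusted p = 0.0081) in probe set 1417483_at and by 1.06 (SE 0.30, adjusted p = 0.039) in 1448728_a_at. Nfkbib rose by 1.14 (SE 0.25, adjusted p = 0.0094), and Nfkbia 1449731_s_at by 0.85 (SE 0.25, adjusted p = 0.044). These 5 called probe sets belong to 3 genes, Nfkbia, Nfkbiz and Nfkbib, all of them IkB genes. Bcl3 missed the threshold at 1.08 (SE 0.33, adjusted p = 0.053), Nfkbie at 0.79 (adjusted p = 0.094), Rela at 0.63 (adjusted p = 0.14) and Relb at 0.83 (adjusted p = 0.16). Rel, the Nfkb2 probe sets and the other Nfkbia probe sets had adjusted p-values from 0.24 to 0.96.

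In the pairs of arrays, 3 probe sets were at least 2-fold higher on the AdOVA array than on the untreated array (4.41% of all tested were), and 7 on the AdOVA with TNFa array than on the TNFa array (6.26% of all). In neither pair was any of the 14 lower by that much, where 4.46% of all were without TNFa and 4.95% with it. The 3 that passed in both pairs, where 1.91% of all did, were Nfkbia 1448306_at and both Nfkbiz probe sets. Nfkbia 1448306_at was 2.48-fold higher with TNFa and 2.70-fold higher without. Bcl3 had the largest difference in either pair, 3.31-fold higher in AdOVA with TNFa than in TNFa alone, but 1.35-fold higher without TNFa. Without TNFa, both Nfkb2 probe sets were lower in AdOVA cells than in untreated cells, by 0.66 and 0.45 on the log2 scale. By any amount, 11 of the 14 were higher in both pairs and 0 lower, where 35.2% of all were higher and 28% lower. The limma calls depend on the scaling, the filter, the model and the AdOVA with TNFa array: 0 of the 5 were called with equal array medians, after quantile normalization, with all non-control probe sets tested, with the fluidics round as a block or without that array. The untreated and AdOVA arrays share a fluidics round, and within it Nfkbia 1448306_at differed by 1.43 and the Nfkbiz probe sets by 1.11 and 1.01 on the log2 scale. The TNFa and AdOVA with TNFa arrays lie in different rounds, so in that pair AdOVA cannot be told apart from the round.

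**Figure D2:**
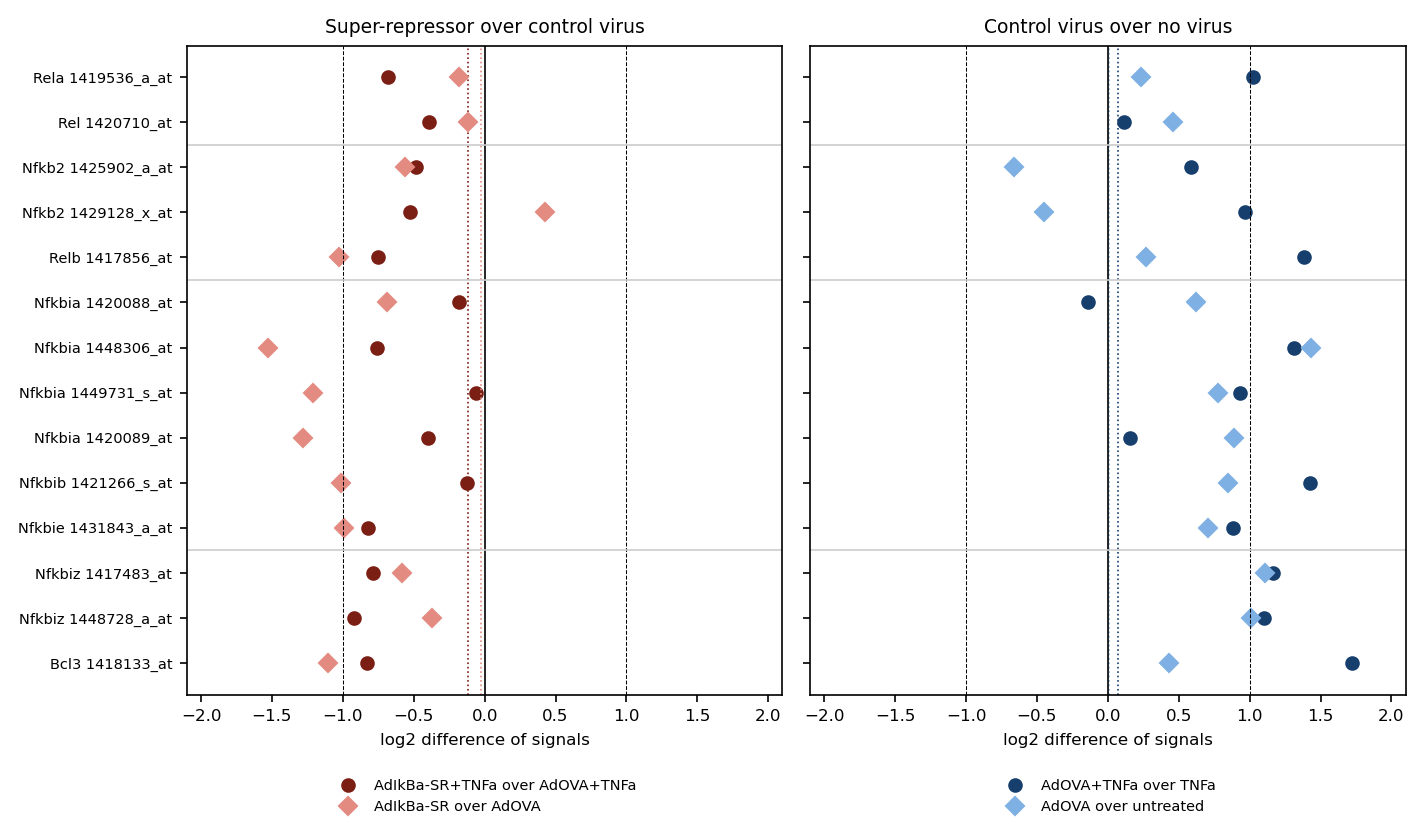
Log2 differences of signals for the 14 probe sets, AdIkBa-SR over AdOVA (left) and AdOVA over no virus (right); circles are pairs of arrays with TNFa, diamonds pairs without, dashed lines mark 2-fold, dotted lines the median of all probe sets tested, and grey lines part the classical subunits, alternative subunits, classical IkB inhibitors and nuclear IkB proteins. With the super-repressor every point but the diamond of Nfkb2 1429128_x_at (0.43) lies left of 0.

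AdIkBa-SR was set against AdOVA, so that both sides carry an adenovirus. The pair with TNFa shares fluidics round and wash. The pair without TNFa crosses rounds and washes, with a first stain of 420 s for AdIkBa-SR and 600 s for AdOVA. In that pair the super-repressor cannot be told apart from these differences. The same AdOVA arrays served in the comparison with no virus. In the fit the AdOVA side takes the TNFa response shared with cells without virus, so the untreated and TNFa arrays enter it. Fitted differences therefore depart from those of the pairs of arrays. Limma called 1 probe set fallen without TNFa, Nfkbia 1448306_at at -1.50 (SE 0.35, adjusted p = 0.041), where it called 0.731% of all fallen and 0.436% risen. At an unadjusted p under 0.05 there were 7 (13.9% of all). With TNFa limma called 0 of the 14, with 3 at an unadjusted p under 0.05 (18.1% of all) and a smallest adjusted p of 0.21 (Nfkbiz 1417483_at), where 1.66% of all were called fallen and 2.35% risen. The medians of the 14 fitted log2 differences were -0.48 with TNFa and -0.96 without, and those of all probe sets tested -0.12 and -0.06. In the pairs of arrays the medians of the 14 were -0.60 with TNFa and -0.84 without.

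In the pair of arrays without TNFa, 6 of the 14 probe sets were at least 2-fold lower in AdIkBa-SR cells (4.39% of all were) and 0 that much higher (3.82% of all). Nfkbia 1448306_at was 2.89-fold lower, Nfkbia 1420089_at 2.43-fold, Nfkbia 1449731_s_at 2.32-fold, Bcl3 2.15-fold and Nfkbib 2.01-fold lower. Relb was at least 2.04-fold lower, since its AdIkBa-SR signal was under the floor. All but Bcl3 and Relb are classical IkB genes. The subunits Rela and Rel were lower by 0.18 and 0.12 on the log2 scale. Nfkb2 1425902_a_at was lower by 0.56, and Nfkb2 1429128_x_at higher by 0.43. Only the AdIkBa-SR array had the other wash protocol, and in the fit without that array, which reads AdIkBa-SR from cells with TNFa, Nfkbia 1448306_at was at -0.79 (adjusted p = 0.24). Its call was also lost with equal array medians, after quantile normalization, in the other models tried and without the AdOVA with TNFa array.

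In the pair with TNFa, 0 of the 14 were 2-fold apart, where 4.85% of all were that much lower and 5.41% that much higher. Past 2-fold in the same direction in both pairs were 0 of the 14 (1.65% of all were lower and 1.13% higher). The largest differences there were those of Nfkbiz (-0.92 and -0.78 on the log2 scale), Bcl3 (-0.83) and Nfkbie (-0.82). The classical IkB probe sets that were lowest without TNFa were closer to their AdOVA values with it: Nfkbia 1449731_s_at was at -0.06 and Nfkbib at -0.12. By any amount, 13 of the 14 were lower in both pairs and 0 higher, where 38.9% of all were lower and 25.8% higher. That count was 9 with equal array medians, where the median of all probe sets in the pair with TNFa was 0.05, against -0.12 in the deposited scaling. The Nfkbia probe sets 1420088_at and 1449731_s_at and Nfkbib were then slightly higher with AdIkBa-SR in that pair, and Rel in the pair without TNFa.

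AdIkBa-SR cells were also set against cells without virus. Both pairs cross fluidics rounds, and the pair without TNFa also sets 0 wash cycles against the usual wash. In AdIkBa-SR over untreated, 1 of the 14 was at least 2-fold apart, Nfkb2 1425902_a_at at 2.34-fold lower (0.543% of all were that much lower and 0.584% that much higher). Relb, under the floor on the AdIkBa-SR array, was at least 1.70-fold lower, and with the floor at the 20th percentile the count was 2. In AdIkBa-SR with TNFa over TNFa, 1 was, Nfkbib at 2.46-fold higher (3.1% of all were that much higher, and 2.62% that much lower). Nfkbia 1448306_at was at 0.55 with TNFa and -0.10 without, and the Nfkbiz probe sets at 0.18 to 0.64 on the log2 scale.

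TNFa was set against no TNFa in each virus state. Only the pair without virus shares both fluidics round and wash: the pair in AdOVA cells crosses rounds, and the pair in AdIkBa-SR cells sets the usual wash against 0 cycles. Nfkb2 1425902_a_at and Relb had the largest differences, in cells that carried a virus. In AdOVA cells 3 of the 14 probe sets were at least 2-fold higher with TNFa (4.7% of all were), and 0 that much lower (3.32% of all). The 3 were both Nfkb2 probe sets and Relb. Nfkb2 1425902_a_at was 3.70-fold, Relb 2.43-fold and Nfkb2 1429128_x_at 2.37-fold higher. In AdIkBa-SR cells 4 were at least 2-fold higher (2.03% of all were) and 0 that much lower (0.832% of all). These were Nfkb2 1425902_a_at at 3.90-fold, Relb at a minimum of 2.95-fold, Bcl3 at 2.11-fold and Nfkbia 1449731_s_at at 2.00-fold. Nfkb2 1429128_x_at was 1.22-fold higher there.

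Without virus 0 of the 14 were 2-fold apart (0.731% of all were that much higher and 1.05% that much lower), and the largest differences were those of Nfkbiz 1448728_a_at at 0.69, Nfkb2 1425902_a_at at 0.64 and Nfkbie at 0.60 on the log2 scale. Nfkbib and Bcl3 were at -0.60 and -0.49 there. The pair without virus and the pair in AdOVA cells share no array, and 0 of the 14 were 2-fold apart the same way in both (0.134% of all were higher and 0.168% lower). Limma called 0 of the 14 for the response shared by AdOVA cells and cells without virus, with 3 at an unadjusted p under 0.05 (11.1% of all) and the smallest adjusted p at Nfkb2 1425902_a_at (1.26, SE 0.33, adjusted p = 0.16). It called 0.0268% of all probe sets risen and 0% fallen. In AdIkBa-SR cells it called 0, with 6 at an unadjusted p under 0.05 (5.1% of all) and a smallest adjusted p of 0.58, and called 0% of all probe sets. The difference between the responses of AdIkBa-SR cells and the shared response was called for 0 of the 14 and for 0% of all probe sets (2 of the 14, and 4.94% of all, had an unadjusted p under 0.05; smallest adjusted p of the 14 0.97).

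By any amount, 7 of the 14 were higher with TNFa in both of these pairs and 2 lower, where 29.5% and 23.5% of all were. In all 3 virus states, 6 of the 14 were higher with TNFa, where 14.6% of all probe sets were. These were Rela, Nfkb2 1425902_a_at, Relb, Nfkbie and both Nfkbiz probe sets. The classical inhibitors Nfkbia and Nfkbib followed another order. In AdOVA cells all 4 Nfkbia probe sets were lower with TNFa, by 0.08 to 0.75 on the log2 scale, and Nfkbib by 0.03. After quantile normalization 1448306_at and 1449731_s_at turned slightly higher, and 3 of the 14 were lower in that pair in place of 5. In AdIkBa-SR cells 3 Nfkbia probe sets and Nfkbib were higher with TNFa, by 0.28 to 1.00, and Nfkbia 1420088_at was lower by 0.24.

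**Figure D3:**
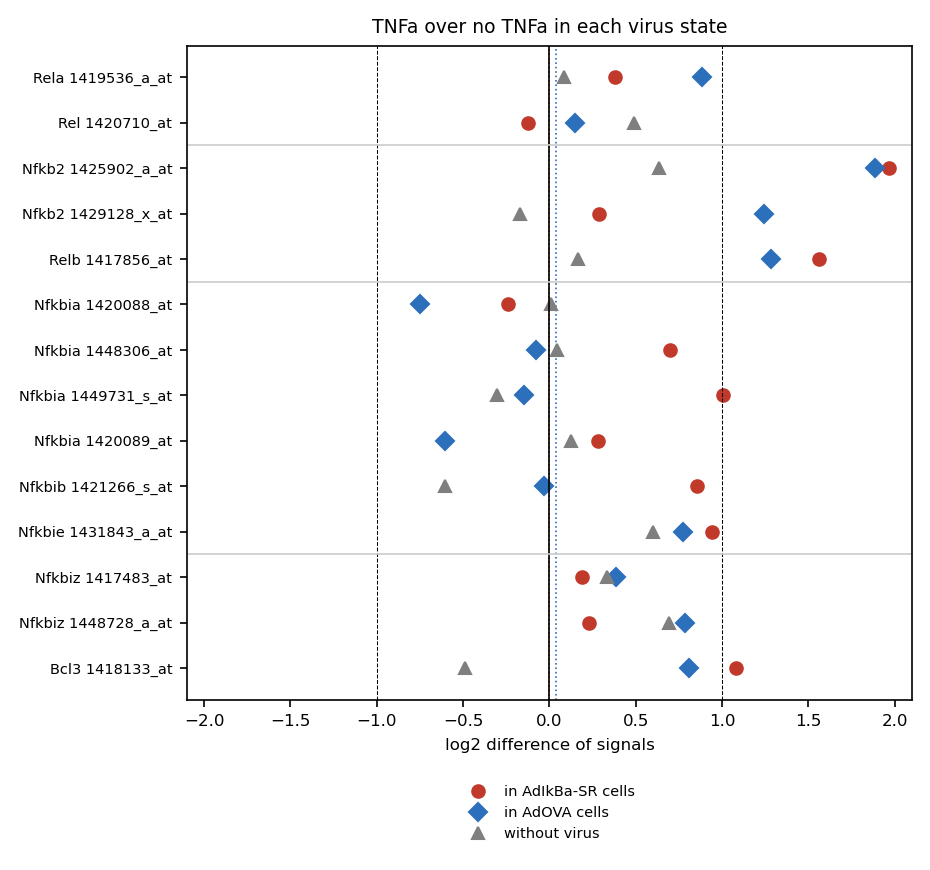
Log2 difference of signals with over without TNFa for the 14 probe sets in AdIkBa-SR cells (circles), AdOVA cells (diamonds) and cells without virus (triangles); dashed lines mark 2-fold, the dotted line the median of all probe sets tested in AdOVA cells, and grey lines part the roles. The Nfkb2 and Relb points of the virus-treated cells reach furthest right, up to 1.97, and the triangles stay between -0.60 and 0.69.

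Each probe set was also described by the arrays on which it was highest and lowest. All 14 had their highest signal on 1 of the 2 AdOVA arrays, where 49.5% of all probe sets tested did. Of these, 9 were highest on the array with TNFa (28.6% of all): Rela, Rel, both Nfkb2 probe sets, Relb, Nfkbie, both Nfkbiz probe sets and Bcl3. The other 5 were highest on the AdOVA array without TNFa (20.9% of all): the 4 Nfkbia probe sets and Nfkbib. On the AdIkBa-SR with TNFa, AdIkBa-SR, TNFa and untreated arrays 0 were highest, where 13.2%, 8.38%, 16.6% and 12.4% of all were. The lowest signal was on the AdIkBa-SR array for 7 (14.8% of all): 3 Nfkbia probe sets, Nfkb2 1425902_a_at, Relb, Nfkbie and Bcl3. For another 4, Rela, Rel and both Nfkbiz probe sets, it was on the untreated array (13.2% of all). Of the last 3, 1 each was lowest on the AdIkBa-SR with TNFa array (19.4% of all; Nfkbia 1420088_at), the AdOVA array (19.6%; Nfkb2 1429128_x_at) and the TNFa array (14.7%; Nfkbib). Rel was highest on the TNFa array, and so 13 of the 14 on an AdOVA array, with equal array medians or after quantile normalization. After quantile normalization 2 Nfkbia probe sets, 1448306_at and 1449731_s_at, were highest on the AdOVA with TNFa array. The AdOVA with TNFa array had the highest median signal of the 6 and the AdIkBa-SR array the lowest.

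**Figure D4:**
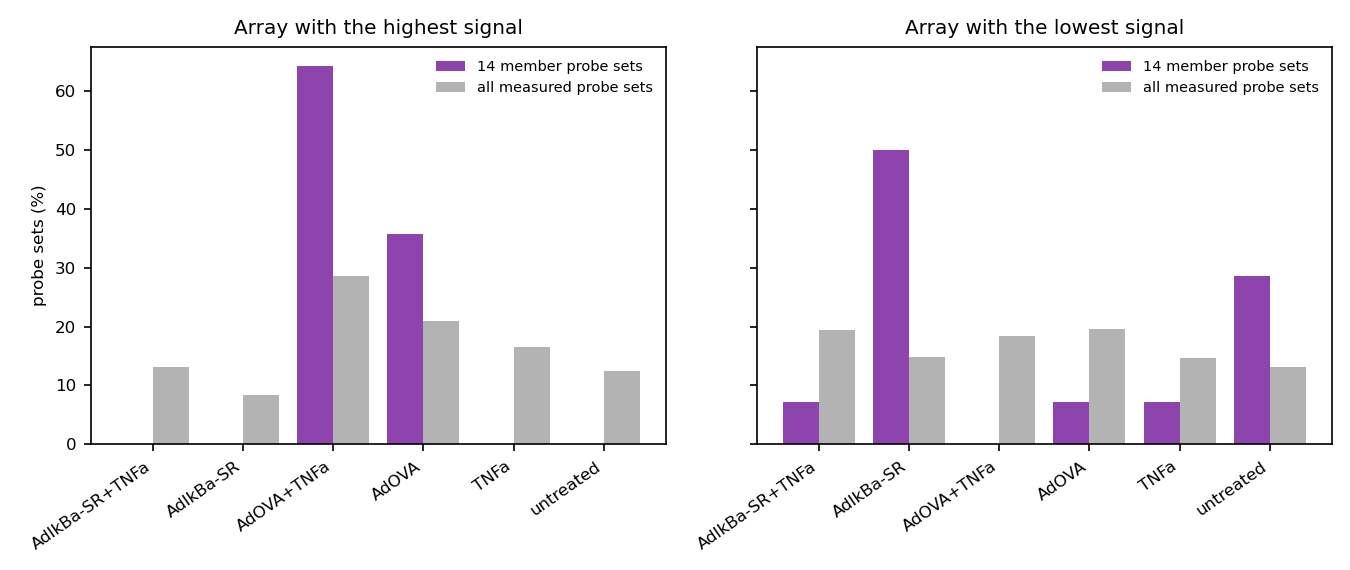
Percentage of the 14 NF-kB and IkB probe sets (purple) and of all 14906 probe sets tested (grey) whose highest (left) or lowest (right) signal was on each array. The purple bars on the left stand only on the AdOVA arrays (9 and 5 probe sets), and the tallest on the right is on the AdIkBa-SR array (7 probe sets).

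Among the kinases and adaptors upstream of NF-kB, 1 gene was called in any contrast. Of 24 listed genes of the IKK complex and its upstream signalling, 20 had a probe set. Limma called 0 of 20 for AdOVA, where 4.03% of all probe sets tested were called risen and 3.86% fallen. The median was 0.24, against 0.06 for all. Ikbkb, the catalytic subunit of the classical pathway, gave 394 and 362 in AdIkBa-SR cells with and without TNFa, 436 and 417 in AdOVA cells, and 538 and 387 in cells without virus. Map3k14, which encodes NIK of the alternative pathway, gave 244 and 167 in AdIkBa-SR cells with and without TNFa, 215 and 209 in AdOVA cells, and 201 and 175 in cells without virus. Neither was called in any contrast. Irak1 gave 343 and 196 in AdIkBa-SR cells with and without TNFa. In AdOVA cells it gave 80.6, its lowest signal, with TNFa and 190 without, and in cells without virus 180 and 280. The 1 call of this list was Irak1, a kinase of Toll-like and IL-1 receptor signalling. By limma it was higher by 1.94 in AdIkBa-SR with TNFa than in AdOVA with TNFa (adjusted p = 0.014). In that contrast 2.35% of all probe sets tested were called risen. Limma called 0 of 20 without TNFa and 0 of 20 for either TNFa response.

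Of the genes that textbooks list as NF-kB targets, some passed the test for AdOVA and fewer for the super-repressor. Of 30 listed, 29 were tested, and limma called 18 risen and 0 fallen with AdOVA (4.03% and 3.86% of all probe sets tested). Their median log2 difference was 1.17, against 0.06 for all probe sets tested. With AdIkBa-SR against AdOVA limma called 12 of the 29 fallen with TNFa (1.66% of all) and 8 without (0.731% of all). It called 0 risen (2.35% and 0.436% of all). The medians were -1.15 with TNFa and -1.24 without, against -0.12 and -0.06 for all probe sets tested. For TNFa limma called 0. With AdOVA the count was 4 with equal array medians, 3 after quantile normalization and 0 without the AdOVA with TNFa array, and with AdIkBa-SR it was 0 under each of these. The rises and falls given below are fitted log2 differences. For AdIkBa-SR against AdOVA they take the shared TNFa response on the AdOVA side, and so depart from the printed signals. Tnfaip3, which encodes A20, an enzyme that ends NF-kB signalling, gave 224 and 110.3 in AdIkBa-SR cells with and without TNFa, 1462 and 512 in AdOVA cells, and 189 and 162 in cells without virus. With AdOVA it rose by 2.31 (adjusted p = 0.00012), and it fell by 2.38 in AdIkBa-SR with TNFa against AdOVA with TNFa (adjusted p = 0.0039). Il6, a cytokine gene that IkBz is known to act on, gave 452 and 264 in AdIkBa-SR cells with and without TNFa, 2749 and 3114 in AdOVA cells, and 326 and 213 in cells without virus. It rose by 3.48 with AdOVA (adjusted p = 1e-07) and fell by 2.80 in AdIkBa-SR with TNFa against AdOVA with TNFa (adjusted p = 0.00017). Traf1, an adaptor of TNF receptors, gave 303 and 169.6 in AdIkBa-SR cells with and without TNFa, 746 and 652 in AdOVA cells, and 384 and 243 in cells without virus. It rose by 1.19 with AdOVA (adjusted p = 0.0089) and fell by 1.42 in AdIkBa-SR with TNFa against AdOVA with TNFa (adjusted p = 0.028). Of the other cytokine genes, Il1a rose by 1.67 with AdOVA, Tnf by 1.49, Il1b by 1.38 and Il12b by 1.30. Of the chemokine genes, Cxcl10 rose by 4.54, Cxcl1 by 3.33, Ccl4 by 2.14, Cxcl2 by 1.42 and Ccl3 by 1.11, and the chemokine receptor gene Ccr7 by 1.29. Nos2 and Ptgs2, which encode enzymes that make nitric oxide and prostaglandins, rose by 2.98 and 2.78, and Irf1, Ier3 and Gadd45b by 1.17, 1.08 and 0.97. Among these 18, Il1b, Cxcl2, Ccl3, Ccl4, Gadd45b and Ier3 were called in neither comparison of AdIkBa-SR with AdOVA. Birc2, Bcl2l1 and Cd83 were at -0.36, -0.34 and -0.30 with AdOVA without a call.

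Among 2391 genes above the floor on all 6 arrays and with a range of at least 2-fold, the gene whose log2 signals were most like those of Rela was Il10ra (Pearson r = 0.996 over the 6 arrays), followed by Elf4 and Ogfr. The nearest to Nfkb2 were Scarb1 (r = 0.964), Brpf1 and Ikbke, an IKK-related kinase gene (r = 0.952). The nearest to Nfkbib were Cdkn1a (r = 0.981), Ms4a10 and Spsb4. For Nfkbie they were Slc1a2 (r = 0.993), Trip10 and Sdc1, for Nfkbiz Htr2b (r = 0.988), Slfn2 and Rnf19b, and for Bcl3 Dpf2 (r = 0.979), Tmco6 and Tmem63b. These are descriptions of 6 points that share the same arrays, picked as the highest of 2391 values. Each list of nearest genes differed from the others. Rel, Relb and Nfkbia were left out, since the probe set read for each spanned less than 2-fold or was under the floor on an array.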

How the data were processed

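The authors deposited linear microarray intensity, 1 signal for each probe set on each array. The submitters' processing notes name MAS5 without a version. Each column was matched to 1 sample by name, and gene symbols came from the platform annotation. A floor was put at 53.5, the 40th percentile over the non-control probe sets. Probe sets above it on at least 2 of 6 arrays were tested (14906 of 22626 non-control). Limma 3.58.1 in R 4.3.3 (lmFit, eBayes with trend) was fitted with 5 coefficients: 3 virus states, 1 TNFa response shared by AdOVA cells and cells without virus, and 1 in AdIkBa-SR cells. Its spread is how far the shared responses differ, pooled over probe sets, so p-values do not measure variation between cultures. P-values were adjusted by Benjamini-Hochberg over all 14906. Pairs of arrays carry no test. Where 1 array of a pair is under the floor, the fold is a minimum.

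Named genes are all probe sets of the 10 genes; from the lists, genes called for AdOVA and up to 4 others, read from the brightest probe set; and the 3 genes most like each gene that spanned 2-fold. The genes and lists were chosen with earlier results of these data known. Alternatives were other floors, scalings, filters and models, and arrays left out. The number of arrays limits the precision.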

Additional observations from a re-analysis of the deposited data

Results flagged for a closer look

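Nfkbib moved in opposite directions with TNFa in different virus states: its log2 difference was 0.86 in AdIkBa-SR cells (692 with and 382 without TNFa) and -0.60 in cells without virus (281 with and 427 without). Limma's test of the response in AdIkBa-SR cells against that shared by AdOVA cells and cells without virus gave 1.17 (SE 0.44, adjusted p = 0.97), and the difference between these pairs alone was not tested. Nfkb2 1425902_a_at moved in opposite directions with AdOVA: its log2 difference was 0.59 with TNFa (470.3 in AdOVA with TNFa and 313 in TNFa) and -0.66 without (127 in AdOVA and 201 in untreated cells). That difference was not tested, because the fit takes 1 AdOVA difference for both pairs.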

How the results depend on the processing

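No paired analysis was possible because each group has 1 array and so no replicate numbers; the additive fit instead takes 1 TNFa difference over the 3 virus states. The count of 5 probe sets risen with AdOVA was 2 in the additive fit of all 6 arrays, and 0 with equal medians, quantile normalization, all non-control probe sets tested, a block for the fluidics round, or the AdOVA+TNFa array left out. The count of 1 fallen with AdIkBa-SR against AdOVA without TNFa was 2 with the floor at the 20th percentile and with log2(signal + 32), which both added Relb, and 0 with equal medians, quantile normalization, all non-control probe sets tested, eBayes without trend, the additive fit, the block, and without the AdOVA+TNFa or the AdIkBa-SR array. The count of 3 past 2-fold with AdOVA in both pairs was 1 with equal medians and 6 at 1.5-fold; at 1.5-fold the counts of 0 became 3 higher with TNFa and 4 lower with AdIkBa-SR. Of the 60 alternative values of the 6 called fits, 22 stayed past the threshold, 38 did not, and 0 changed direction; over them the adjusted p of Nfkbia 1448306_at with AdOVA ran from 0.0029 to 0.46. Of the 100 alternative values of the 25 pair differences past 2-fold, 0 changed direction. Chosen after seeing the data, the same alternatives were run for all probe sets and the target list: calls of 600 risen and 575 fallen with AdOVA became 315 and 177 in the additive fit, and 0 where the 5 did, except for the scalings given in the report; the 18 target genes became 11 and 0. With AdIkBa-SR, all calls over AdOVA ran from 0 to 598 without TNFa (174 in the fit used) and from 0 to 665 with it (598), and target genes from 0 to 14 in both (8 and 12). The additive fits take 1 AdIkBa-SR difference for cells with and without TNFa, so their counts stand for both. Without the AdIkBa-SR array that difference comes only from cells with TNFa. Apart from changes built into an alternative (more probe sets tested, fewer arrays), the cause of the changes between alternatives was not tested. With 1 array per group, differences between neighbouring signals and those near the floor (Rel, Relb, Nfkb2 1429128_x_at) cannot be resolved.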
